A study of Mus musculus with 8 samples.

Results

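The genes described here are 8 sensors, editors and signalling proteins of innate RNA recognition, *Ddx58* (RIG-I, also named *Rigi*), *Ifih1* (MDA5), *Dhx58* (LGP2), *Mavs*, *Eif2ak2* (PKR), *Adar* (ADAR1), *Zbp1* and *Tlr7*. They were chosen by name and matched to Entrez identifiers of the count table, where they are 8 of 27179 genes, and all 8 were among the 17700 genes that passed the expression filter and were tested. RNA was measured in early LPre-B cells, the large cycling precursors that lack CD2, and in sPre-B cells, the small precursors that rearrange the light chain locus, both sorted from mouse bone marrow. All mice were Upf1 Flox/Flox and Igh B1-8hi/+, on a C57BL/6 background and 8 to 16 weeks old, so that every group carried the floxed *Upf1* alleles and a knocked-in heavy chain that is already rearranged. cKO/IghB1-8hi mice were Mb1 Cre/+, in which Cre is expressed from the *Cd79a* (Mb1) locus in the B lineage, and Ctrl/IghB1-8hi mice were Mb1 +/+. Each of the 4 groups (Ctrl and cKO at either stage) had 2 libraries. UPF1 is an RNA helicase of nonsense-mediated mRNA decay, and the comparisons ask how these genes differ in cells with a deletion of *Upf1* and between the stages.

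RIG-I and MDA5 bind double-stranded RNA in the cytoplasm and signal through MAVS on mitochondria to induce type I interferon, whereas LGP2 binds RNA without a signalling domain of its own and modulates both. PKR, once bound to double-stranded RNA, phosphorylates eIF2α and slows translation, and ZBP1 recognises nucleic acid in the Z conformation and acts through RIPK3. ADAR1 converts adenosine to inosine in double-stranded RNA, which keeps self RNA from activating MDA5 and PKR, and TLR7 senses single-stranded RNA in endosomes. Most of these genes are themselves induced by interferon.

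Totals per library lay between 68516857 and 160426338 counts, and 3 counts, taken as the floor, corresponded to 0.0217 to 0.0426 CPM (counts scaled to a common library size of 10 to the sixth, after TMM), a limit that covers counting error only. The gene-level count of *Upf1* cannot show the deletion, since loxP sites flank exons 4 to 6 and the other exons are still counted. Its level was 213 to 237 CPM in Ctrl and 244 to 258 CPM in cKO early LPre-B cells, and 186 to 198 and 282 to 293 CPM in sPre-B cells. *Cd79a*, the locus that holds Cre, was at 543 to 640 CPM in Ctrl and 160 to 188 CPM in cKO cells of the early LPre-B stage, and at 1478 to 1602 and 325 to 405 CPM at the sPre-B stage. Replicate 2 of both Ctrl groups had *Xist* at 3.90 and 2.14 CPM against at least 3126 CPM in the other 6 libraries, and had *Ddx3y*, *Eif2s3y*, *Uty* and *Kdm5d*, on chromosome Y, at 51.9 to 119 CPM. The libraries of each Ctrl group thus differ in sex and are not of one animal, and the study's methods describe its data points as biological replicates. The labels name no animals, and whether same-numbered libraries of the stages share one is not given. In bulk RNA, fewer cells that express a gene cannot be told apart from less RNA per cell.

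The promoters of the genes were read from RefSeq (GRCm38.p6) as 250 bases before and 50 bases after the annotated start, and 5 of the 8 genes were matched, *Ddx58*, *Ifih1*, *Mavs*, *Eif2ak2* and *Adar*, but not *Dhx58*, *Zbp1* and *Tlr7*. They were searched on both strands for the core of the interferon-stimulated response element, GAAA repeated after any 2 bases, which 3.44% of 32851 promoters of the same length hold. *Ddx58*, *Ifih1* and *Eif2ak2* hold 1 match each, and *Mavs* and the 3 promoters of *Adar* hold none. Only exact matches were counted. A promoter of *Adar* (chr3:89730468-89730767) holds, after its start, a run that misses the pattern only at its last letter. The 3 sequences with a match are shown because *Ifih1* and *Eif2ak2* differed between genotypes in early LPre-B cells and *Ddx58* between stages, with the match in capitals and each sequence 5′ to 3′ on the gene's own strand, the minus strand in all 3. *Adar* and *Mavs*, which hold no match, also differed between the stages of Ctrl cells. The first base of the match lies 2 bases after the start in *Ddx58* (chr4:40239776-40240075), 32 bases after it in *Ifih1* (chr2:62646206-62646505) and 18 bases after it in *Eif2ak2* (chr17:78882523-78882822).
Ddx58: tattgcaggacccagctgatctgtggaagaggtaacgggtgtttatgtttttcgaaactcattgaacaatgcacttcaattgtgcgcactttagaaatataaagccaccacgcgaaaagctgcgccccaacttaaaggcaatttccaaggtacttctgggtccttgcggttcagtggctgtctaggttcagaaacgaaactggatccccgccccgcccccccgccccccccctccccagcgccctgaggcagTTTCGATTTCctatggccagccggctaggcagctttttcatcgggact
Ifih1: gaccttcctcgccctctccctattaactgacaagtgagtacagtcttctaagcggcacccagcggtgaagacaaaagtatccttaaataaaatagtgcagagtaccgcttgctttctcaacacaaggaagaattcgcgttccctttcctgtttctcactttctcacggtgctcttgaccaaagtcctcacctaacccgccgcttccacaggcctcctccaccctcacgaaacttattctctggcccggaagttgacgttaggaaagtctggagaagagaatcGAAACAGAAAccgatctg
Eif2ak2: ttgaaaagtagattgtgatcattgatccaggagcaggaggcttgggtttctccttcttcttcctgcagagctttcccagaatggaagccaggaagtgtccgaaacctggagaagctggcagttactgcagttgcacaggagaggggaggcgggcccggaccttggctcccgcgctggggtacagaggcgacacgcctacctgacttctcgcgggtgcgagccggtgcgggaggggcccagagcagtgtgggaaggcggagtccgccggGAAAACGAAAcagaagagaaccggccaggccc

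The STAT motif TTCNNNGAA, which reads the same on both strands, was found in 8.3% of promoters and in those of *Eif2ak2* and *Adar* (1 of its 3). A match is a run of letters and not evidence of binding, and the windows do not reach further upstream.

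Set side by side per kilobase of exon, the level of *Adar* was the highest of the 8 in Ctrl early LPre-B cells, at 18.2 ± 0.321 CPM per kb (SD, n = 2). It was followed by *Mavs* (11.2 ± 0.578), *Eif2ak2* (10.01 ± 0.481), *Ddx58* (6.40 ± 0.665), *Dhx58* (4.06 ± 0.0401), *Zbp1* (2.005 ± 0.682), *Ifih1* (0.9999 ± 0.241) and *Tlr7* (0.207 ± 0.0141 CPM per kb), and no neighbours in this order had overlapping libraries. In Ctrl sPre-B cells *Ddx58* stood first at 40.2 ± 1.23 CPM per kb, ahead of *Adar* at 30.2 ± 0.781, and *Tlr7* was again last at 0.302 ± 0.00882 CPM per kb. In cKO early LPre-B cells *Adar* (23.4 ± 5.65) and *Eif2ak2* (19.1 ± 6.23) headed the order with overlapping libraries. Libraries also overlapped between *Dhx58* (7.17 ± 2.38) and *Ddx58* (6.27 ± 1.66), *Ifih1* (2.03 ± 0.768) and *Zbp1* (1.84 ± 0.783), and *Zbp1* and *Tlr7* (1.14 ± 0.226 CPM per kb). In cKO sPre-B cells *Ddx58* (46.8 ± 2.26) and *Adar* (32.8 ± 6.80) led without overlap, and *Mavs* (13.9 ± 0.591), *Eif2ak2* (12.9 ± 4.82), *Dhx58* (10.3 ± 2.28) and *Zbp1* (8.36 ± 3.63 CPM per kb) each overlapped with the next. Per kilobase, the level of *Ddx58* was 79.8 times that of *Ifih1* in Ctrl sPre-B cells and 22.5 times in cKO sPre-B cells, against 6.41 and 3.09 times at the early LPre-B stage.

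**Figure D1:**
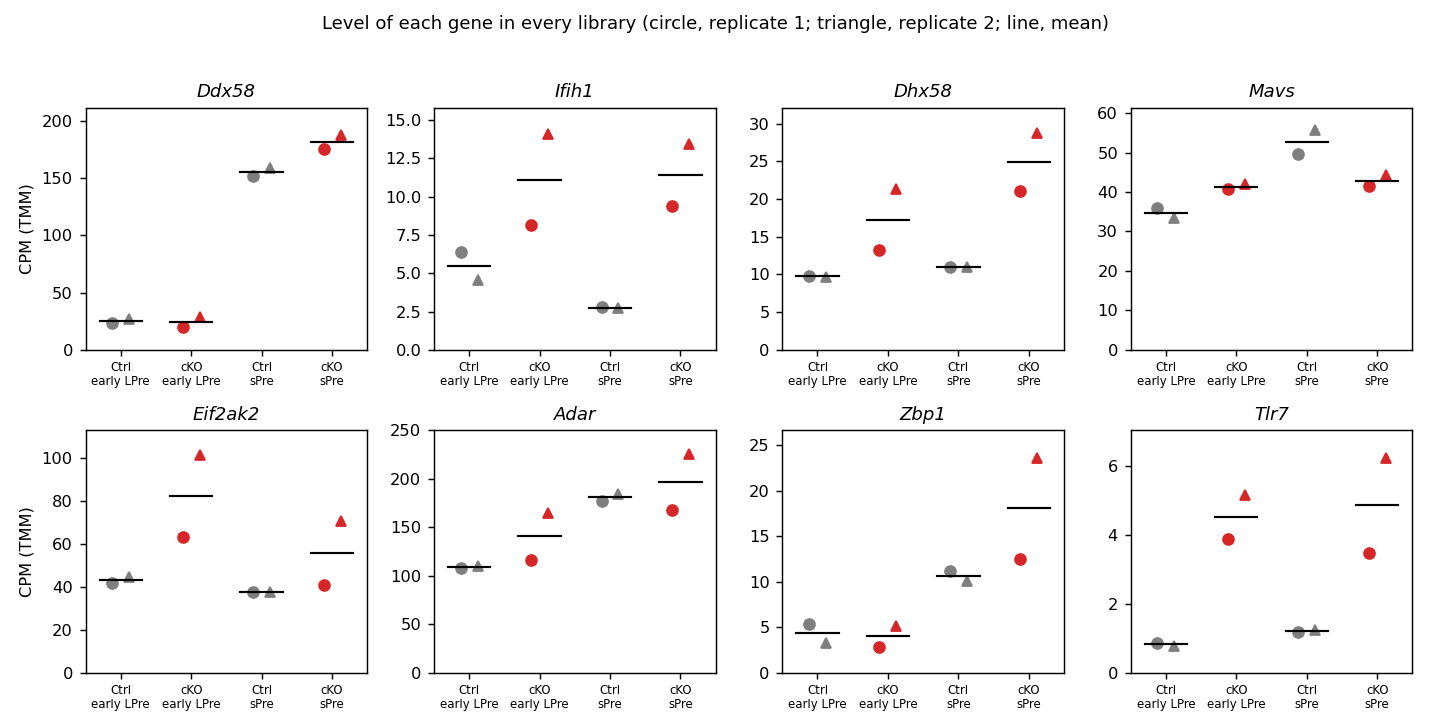
Level of each of the 8 genes in every library, in CPM after TMM scaling on a linear axis from 0, for Ctrl (grey) and cKO (red) cells of both stages; circles are replicate 1, triangles replicate 2 and lines the mean of the 2. *Ddx58* separates the stages (19.7 to 28.8 against 152 to 188 CPM) and *Tlr7* separates cKO from Ctrl cells (3.46 to 6.23 against 0.782 to 1.22 CPM).

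In cKO early LPre-B cells, 4 of the 8 genes were higher than in Ctrl cells, the RNA helicases *Ifih1* and *Dhx58*, the kinase gene *Eif2ak2* and the endosomal receptor gene *Tlr7*, with an adjusted *P* under 0.05 in edgeR's two-sided quasi-likelihood test over 17700 genes. Of all genes tested, 31.3% passed in this comparison, 14.5% higher and 16.9% lower. The median Log2FC of the 8 genes was 0.60, and that of all genes was -0.06. The median of the 8 was 0.34 without replicate 2 and 0.86 without replicate 1 of the cKO group. None of the 8 was lower, also at an unadjusted *P* under 0.05, where 5 were higher, and DESeq2 called 4 higher and 0 lower.

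*Tlr7* (Entrez 170743), on chromosome X from 167304929 to 167330558 (mm10), had the largest difference of the 8. It was at 0.861 and 0.782 CPM in Ctrl (119 and 61 counts) and 3.88 and 5.14 CPM in cKO early LPre-B cells (422 and 668 counts). Both cKO libraries were far above both Ctrl libraries, and the Log2FC was 2.45 (SE 0.31, adjusted *P* = 0.000715), 5.47-fold, with 0.955% of all genes tested above it. The first Ctrl value is from the library with *Xist* and the other from the one without it. The part of this in the difference was not tested beyond leaving the library out. The call held under all 15 alternatives, with a Log2FC of 2.24 to 2.64 and an adjusted *P* between 1.10e-12 and 0.0151.

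Among the helicases, *Ifih1* (Entrez 71586, chromosome 2, 62595798 to 62646255) was at 6.40 and 4.54 CPM in Ctrl and 8.14 and 14.1 CPM in cKO early LPre-B cells. The groups did not overlap, replicate 2 of the cKO group being the highest, and the Log2FC was 1.02 (SE 0.29, adjusted *P* = 0.0274). *Dhx58* (Entrez 80861, chromosome 11, 100694884 to 100704271) was at 9.85 and 9.72 CPM in Ctrl and 13.2 and 21.4 CPM in cKO cells, a Log2FC of 0.82 (SE 0.23, adjusted *P* = 0.0252). For *Ddx58* (Entrez 230073, chromosome 4, 40203773 to 40239828) the Ctrl libraries (23.0 and 26.6 CPM) lay between the cKO libraries (19.7 and 28.8 CPM), and the Log2FC was -0.03 (SE 0.16, adjusted *P* = 0.913). RIG-I thus showed no difference that exceeded the spread, while the other members of its helicase family did.

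Of the effectors, *Eif2ak2* (Entrez 19106, chromosome 17, 78852564 to 78882573) was at 41.7 and 44.6 CPM in Ctrl and 63.2 and 101 CPM in cKO early LPre-B cells. Both cKO libraries were above both Ctrl libraries, with a Log2FC of 0.93 (SE 0.26, adjusted *P* = 0.0271). *Zbp1* (Entrez 58203, chromosome 2, 173206612 to 173218923) overlapped, at 5.38 and 3.29 CPM in Ctrl and 2.78 and 5.18 CPM in cKO cells, with a Log2FC of -0.13 (SE 0.37, adjusted *P* = 0.830). The editor gene *Adar* (Entrez 56417, chromosome 3, 89715022 to 89753446) was at 108 and 110 CPM in Ctrl and 117 and 165 CPM in cKO cells. Its groups did not overlap, but its Log2FC of 0.37 (SE 0.18) did not pass the test (adjusted *P* = 0.149), nor did that of the adaptor gene *Mavs* (Entrez 228607, chromosome 2, 131234063 to 131248025), 0.25 (SE 0.09, adjusted *P* = 0.0744), at 35.9 and 33.4 CPM in Ctrl and 40.7 and 42.0 CPM in cKO cells.

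The calls of *Ifih1*, *Dhx58* and *Eif2ak2* were lost when single libraries were left out. Their Log2FC was lowest without replicate 2 of the cKO group, at 0.57, 0.44 and 0.55, where only *Tlr7* of the 8 passed the test. *Tlr7* was also the only call without replicate 2 of Ctrl early LPre-B cells and without both Ctrl libraries that lack *Xist*. In both of these cases the Log2FC of the 3 genes was 0.84, 0.86 and 1.03. Without replicate 1 of the Ctrl group, *Ifih1* (1.32) and *Tlr7* passed, and *Dhx58* (0.86) and *Eif2ak2* (0.91) did not. Over their 15 alternatives the adjusted *P* lay between 0.00121 and 0.189 for *Ifih1*, 0.00125 and 0.170 for *Dhx58* and 0.000594 and 0.171 for *Eif2ak2*.

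In cKO sPre-B cells, *Ifih1*, *Dhx58* and *Tlr7* were higher than in Ctrl cells and *Mavs* was lower, and the other 4 genes did not pass the test. Of all genes tested, 34.7% passed, 19.8% higher and 14.9% lower. The median Log2FC was 0.67 for the 8 genes and 0.01 for all genes. The median of the 8 was 0.20 without replicate 2 and 1.03 without replicate 1 of the cKO group.

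*Ifih1* was at 2.80 and 2.71 CPM in Ctrl and 9.40 and 13.4 CPM in cKO sPre-B cells. Both cKO libraries were above both Ctrl libraries, and the Log2FC was 2.05 (SE 0.30, adjusted *P* = 0.00126), 4.14-fold. *Tlr7* was at 1.17 and 1.22 CPM in Ctrl (99 and 86 counts) and 3.46 and 6.23 CPM in cKO cells (319 and 779 counts), a Log2FC of 2.02 (SE 0.30, adjusted *P* = 0.00142), 4.06-fold. *Dhx58* was at 11.02 CPM in either Ctrl library and at 21.0 and 28.8 CPM in the cKO libraries, a Log2FC of 1.18 (SE 0.23, adjusted *P* = 0.00484), 2.26-fold. For each of these 3 genes replicate 2 was the higher cKO library. The 3 calls held under all 15 alternatives, with a Log2FC of 1.77 to 2.28 for *Ifih1*, 1.53 to 2.38 for *Tlr7* and 0.93 to 1.39 for *Dhx58* and a largest adjusted *P* of 0.0178, 0.0229 and 0.0470.

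*Mavs* was at 49.6 and 55.7 CPM in Ctrl and 41.6 and 44.2 CPM in cKO sPre-B cells. The groups did not overlap, and the Log2FC was -0.30 (SE 0.09, adjusted *P* = 0.0402), 1.23-fold lower. The call held under 7 of 15 alternatives, with a Log2FC of -0.41 to -0.25 and an adjusted *P* of 0.0233 to 0.219, and was lost among others without replicate 2 of the Ctrl group (-0.25) and without either cKO sPre-B library (-0.25 and -0.34). The adaptor was the one gene of the 8 called lower in cKO cells, at the sPre-B stage only, by a small amount and not under most alternatives.

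*Ddx58* was at 152 and 159 CPM in Ctrl and 175 and 188 CPM in cKO sPre-B cells, a Log2FC of 0.22 (SE 0.16, adjusted *P* = 0.317) with no overlap. *Eif2ak2* was at 37.3 and 37.6 CPM in Ctrl and 41.0 and 70.4 CPM in cKO cells, a Log2FC of 0.57 (SE 0.26, adjusted *P* = 0.125). The first cKO library of *Eif2ak2* was close to the Ctrl libraries and the second well above them, and the gene passed under 2 of 15 alternatives, without the first and with no expression filter (adjusted *P* 0.0274 to 0.730). *Zbp1*, at 11.2 and 10.03 CPM in Ctrl and 12.5 and 23.6 CPM in cKO cells, had the same arrangement (Log2FC 0.77, SE 0.37, adjusted *P* = 0.141). *Adar* overlapped, at 178 and 184 CPM in Ctrl and 168 and 226 CPM in cKO cells (Log2FC 0.12, SE 0.18, adjusted *P* = 0.633).

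**Figure D2:**
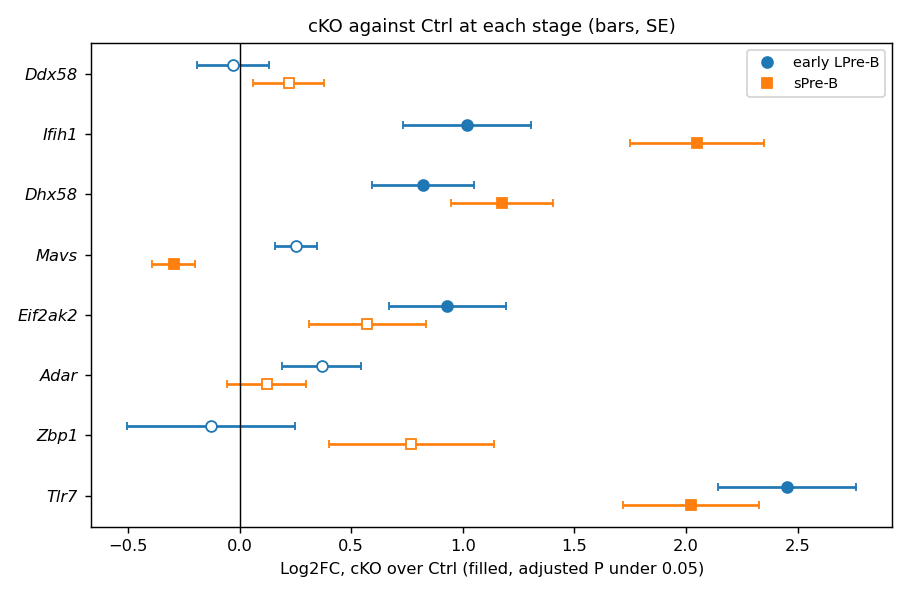
Log2FC of cKO over Ctrl cells for the 8 genes in early LPre-B (blue circles) and sPre-B cells (orange squares), with bars for 1 SE and filled symbols for an adjusted *P* under 0.05. *Tlr7*, *Ifih1* and *Dhx58* are filled and to the right of 0 at both stages, and *Mavs* lies at 0.25 in early LPre-B and -0.30 in sPre-B cells.

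None of the 8 genes passed the interaction of genotype and stage in edgeR, a test that called 4.24% of all genes, 2.64% with a Log2FC that was higher at the sPre-B stage and 1.6% with a lower one. At an unadjusted *P* under 0.05 there were 2, 1 in either direction, and DESeq2 called 1, *Mavs*. The difference was -0.55 for *Mavs* (SE 0.13, adjusted *P* = 0.0578), whose Log2FC was above 0 at the early LPre-B and below it at the sPre-B stage. It passed under 5 of 14 alternatives (adjusted *P* 0.0111 to 0.180, with a difference of -0.71 to -0.50). For *Ifih1* the difference was 1.03 (SE 0.41, adjusted *P* = 0.197), and for *Tlr7* it was -0.43 (SE 0.42, adjusted *P* = 0.621).

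*Ddx58* had the largest difference between the stages of the 8 genes in either genotype. *Ddx58*, *Zbp1* and *Adar* were higher in all 4 sPre-B libraries than in any early LPre-B library, as were 24.1% of all genes tested, and 25.8% of all genes but none of the 8 were lower in all 4. The level of *Ddx58* in sPre-B cells was 6.28-fold that in early LPre-B cells of Ctrl mice (Log2FC 2.65, SE 0.17, adjusted *P* = 4.45e-06) and 7.47-fold in cKO mice (2.90, SE 0.17, adjusted *P* = 3.55e-06), and the call held under all 15 alternatives in either genotype. In Ctrl cells *Ddx58*, *Zbp1*, *Adar* and *Mavs* were higher and *Ifih1* was lower in sPre-B cells, so that 5 of 8 genes passed the test where 60.2% of all genes did (29.1% higher, 31.1% lower). The sensor genes *Ddx58* and *Ifih1* thus moved in opposite directions between the stages of Ctrl cells.

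*Ifih1* fell from 6.40 and 4.54 to 2.80 and 2.71 CPM, a Log2FC of -0.99 (SE 0.30, adjusted *P* = 0.0177), with no overlap. *Dhx58* (9.85 and 9.72 against 11.02 CPM in both) had a Log2FC of 0.17 (SE 0.23, adjusted *P* = 0.538). Of the relatives of *Ddx58*, *Ifih1* was thus lower in CPM at the later stage of Ctrl cells, and *Dhx58* showed no difference beyond the spread. *Zbp1* rose from 5.38 and 3.29 to 11.2 and 10.03 CPM (Log2FC 1.28, SE 0.38, adjusted *P* = 0.0165). *Adar* rose from 108 and 110 to 178 and 184 CPM (0.73, SE 0.18, adjusted *P* = 0.00667) and *Mavs* from 35.9 and 33.4 to 49.6 and 55.7 CPM (0.60, SE 0.10, adjusted *P* = 0.000633). In none of these did a library of one stage reach the range of the other. *Eif2ak2* (-0.20, SE 0.26, adjusted *P* = 0.525) and *Tlr7* (0.54, SE 0.31, adjusted *P* = 0.165) did not pass. The call of *Ifih1* was lost, with a Log2FC of -0.66, without replicate 1 of Ctrl early LPre-B cells and without either Ctrl sPre-B library (-0.95 and -0.91), that of *Zbp1* without replicate 2 of Ctrl early LPre-B cells (1.05), and all calls but those of *Ddx58* and *Mavs* without both Ctrl libraries that lack *Xist*. There the Log2FC was -1.12 for *Ifih1*, 1.13 for *Zbp1* and 0.79 for *Adar*. The adjusted *P* over 15 alternatives lay between 0.00167 and 0.146 for *Ifih1*, 0.000193 and 0.139 for *Zbp1* and 8.45e-05 and 0.0597 for *Adar*.

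In cKO cells, which share the libraries of the genotype comparisons above, 3 of the 8 genes were higher in sPre-B cells, *Ddx58*, *Zbp1* and *Adar*, where 62.6% of all genes passed, 31.6% higher and 31.1% lower. *Zbp1* went from 2.78 and 5.18 to 12.5 and 23.6 CPM, 4.54-fold (Log2FC 2.18, SE 0.38, adjusted *P* = 0.00113), and *Adar* from 117 and 165 to 168 and 226 CPM (0.49, SE 0.18, adjusted *P* = 0.0393), a call that held under 9 of 15 alternatives (adjusted *P* 0.00845 to 0.283). The other 5 genes did not pass the test. *Ifih1* (0.04, SE 0.28), *Mavs* (0.05, SE 0.09) and *Tlr7* (0.10, SE 0.29) were near 0 with overlapping libraries. *Dhx58* had a Log2FC of 0.53 (SE 0.22, adjusted *P* = 0.0687) and *Eif2ak2* of -0.56 (SE 0.26, adjusted *P* = 0.0894), and both passed in 5 of 15 alternatives, DESeq2 and the block for the replicate number among them.

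**Figure D3:**
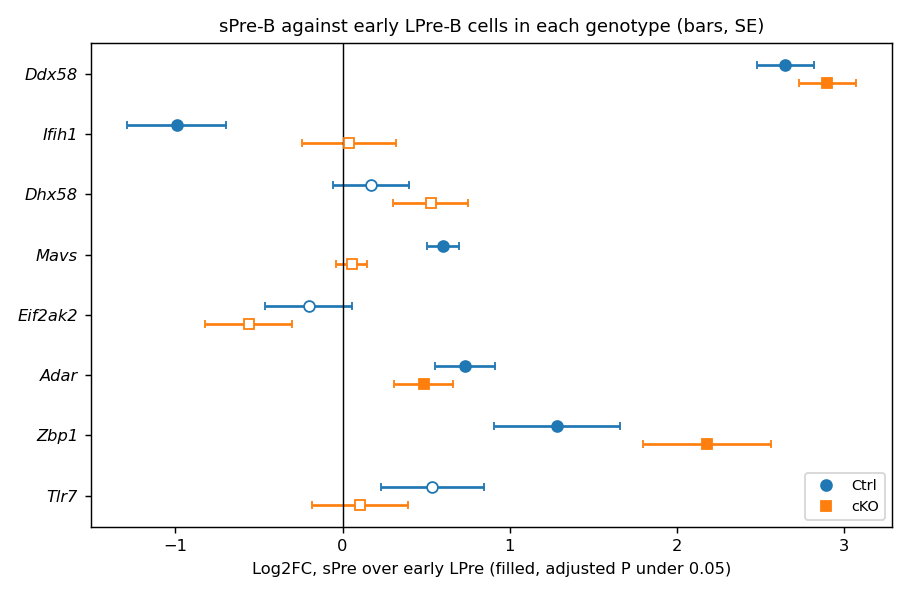
Log2FC of sPre-B over early LPre-B cells for the 8 genes in Ctrl (blue circles) and cKO mice (orange squares), with bars for 1 SE and filled symbols for an adjusted *P* under 0.05. *Ddx58* lies at 2.65 and 2.90, and *Ifih1* at -0.99 in Ctrl and 0.04 in cKO cells.

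Replicate 2 of the cKO cells was above replicate 1 for 8 of 8 genes at both stages, by 1.03 times (*Mavs*) to 1.86 times (*Zbp1*) in early LPre-B cells and by 1.06 times (*Mavs*) to 1.89 times (*Zbp1*) in sPre-B cells. Over all genes tested, 37.3% were higher in replicate 2 at both stages. The Ctrl libraries had replicate 2 above replicate 1 at both stages for 3 of the 8 genes and for 28.0% of all genes. In the cKO cells, replicate 2 was also above replicate 1 at both stages in 10 of 10 genes of the list of oligoadenylate synthetases (OAS) and related genes and in 19 of 20 interferon-stimulated genes, of which *Mx2* was at 5.36 and 20.6 CPM in cKO early LPre-B and 9.97 and 37.7 CPM in cKO sPre-B cells. The labels give no difference between these libraries, and what part it has in the comparisons was not tested beyond leaving each out. With only replicate 1 of the cKO group, *Tlr7* was still called in early LPre-B cells (Log2FC 2.24), and *Tlr7*, *Ifih1* and *Dhx58* in sPre-B cells (1.53, 1.77 and 0.93).

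**Figure D4:**
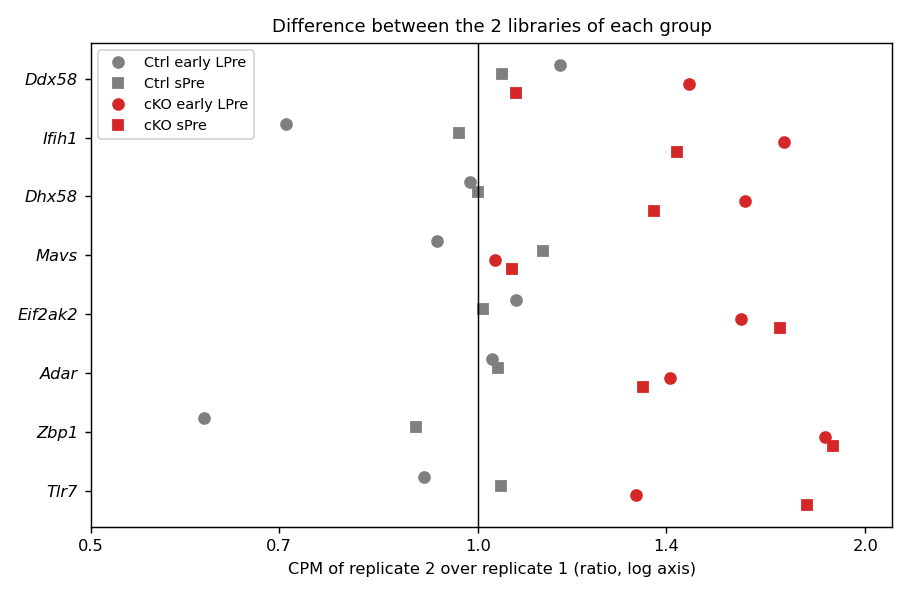
CPM of replicate 2 over that of replicate 1 for each of the 8 genes within the 4 groups, on a log axis with a line at 1; grey symbols are Ctrl and red symbols cKO, circles early LPre-B and squares sPre-B cells. All 16 red symbols lie to the right of 1, between 1.03 and 1.89.

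The genes that work with the 8 were described in lists by count and median, and in cKO cells no list had all of its members pass the test in one direction. The counts are to be read against all genes tested, of which 14.5% were higher and 16.9% lower in cKO early LPre-B and 19.8% and 14.9% in cKO sPre-B cells. Among 18 cofactors and brakes of the RIG-I-like receptors, 3 were higher and 2 lower in cKO early LPre-B cells (median Log2FC -0.08) and 5 were higher in cKO sPre-B cells (-0.08). *Atg12*, whose product conjugates to ATG5 and dampens RIG-I signalling, was higher at both stages (1.15, SE 0.11, and 0.69, SE 0.11), as was *Nlrc5*, a regulator of MHC class I genes, in sPre-B cells (0.72, SE 0.15). *Trim25*, the ubiquitin ligase that activates RIG-I, was lower in cKO early LPre-B cells (-0.44, SE 0.14), as was *Mex3c*, another ligase of RIG-I (-0.62, SE 0.14).

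In the list of signalling below MAVS and the Toll-like receptors (20 genes), 4 were higher and 2 lower in early LPre-B cells and 6 higher and 3 lower in sPre-B cells, with medians of -0.08 and 0.05. *Ikbke*, which encodes the kinase IKKε that phosphorylates IRF3 and IRF7, was at 10.1 and 9.89 CPM in Ctrl and 23.8 and 23.1 CPM in cKO early LPre-B cells, and at 0.686 and 0.908 CPM in Ctrl and 4.21 and 3.74 CPM in cKO sPre-B cells. Its Log2FC was 1.23 (SE 0.15, adjusted *P* = 0.000567) and 2.32 (SE 0.17, adjusted *P* = 5.04e-05), and the difference of 1.10 passed the interaction (SE 0.22, adjusted *P* = 0.0333), as did that of *Tank*, a scaffold for this kinase (0.81, SE 0.18, adjusted *P* = 0.0461). *Traf6*, a ubiquitin ligase below these receptors, was lower at both stages (-0.69, SE 0.10, and -0.41, SE 0.10), and *Casp8* was lower in sPre-B cells (-0.56, SE 0.09).

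Of the 15 genes tested among the endosomal Toll-like receptors and their handling, 2 were higher at both stages, *Slc15a4*, a lysosomal transporter needed for TLR7 and TLR9 signalling (0.84, SE 0.09, and 0.77, SE 0.09), and *Cnpy3*, a chaperone for Toll-like receptors (0.91, SE 0.12, and 0.70, SE 0.12). *Lgmn*, a lysosomal protease, was lower in early LPre-B cells (-0.35, SE 0.11). *Tlr9*, the receptor for unmethylated DNA, was at 18.8 and 20.9 CPM in Ctrl and 18.7 and 17.4 CPM in cKO early LPre-B cells, and did not pass the test at either stage. It rose between the stages in both genotypes (2.88, SE 0.14, and 2.72, SE 0.14), where the Log2FC of *Tlr7* was 0.54 and 0.10 and did not pass the test. *Unc93b1*, which carries both receptors to endosomes, also rose in both (1.54, SE 0.12, in Ctrl and 2.004, SE 0.12, in cKO cells).

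*Eif2ak3* (PERK), another eIF2α kinase, was lower in cKO cells of both stages (-1.11, SE 0.10, and -0.92, SE 0.10), against the direction of *Eif2ak2*. In its list of 10 genes around PKR and translation, 4 were lower in early LPre-B cells (median -0.17), and 1 was higher and 1 lower in sPre-B cells (median 0.02). Among the 10 genes of the OAS family and related genes, 1 was higher and 9 did not pass the test at either stage (medians 0.32 and 0.80, and 0.10 and 0.07 without replicate 2 of the cKO group). *Oas1b*, a member of the oligoadenylate synthetases, was at 5.71 and 6.82 CPM in Ctrl and 21.7 and 31.6 CPM in cKO early LPre-B cells and at 14.1 and 19.2 against 42.1 and 57.4 CPM in sPre-B cells (2.09, SE 0.24, and 1.58, SE 0.24).

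Of 12 tested genes for editing and double-stranded RNA binding, 3 were higher and 2 lower in early LPre-B cells and 2 higher and 2 lower in sPre-B cells, with medians of -0.12 and -0.16. The helicase gene *Dhx9* was higher at both stages (0.65, SE 0.12, and 0.88, SE 0.12), and so was *Cdkn2aip* (1.10, SE 0.12, and 0.73, SE 0.12). *Stau2*, a Staufen protein, was lower at both (-1.14, SE 0.15, and -1.10, SE 0.15), and so was *Ilf2* (-0.37, SE 0.10, and -0.48, SE 0.10). Among 14 genes for enzymes that limit self RNA and DNA ligands, 5 were higher and 1 lower in early LPre-B cells and 4 higher and 3 lower in sPre-B cells (medians 0.17 and 0.19). *Supv3l1*, the helicase of the mitochondrial RNA degradosome, was higher at both stages (1.21, SE 0.09, and 1.29, SE 0.09), as was *Trex1*, a DNA exonuclease (0.68, SE 0.15, and 0.77, SE 0.15), while *Samhd1*, a dNTP hydrolase, was lower in sPre-B cells (-0.43, SE 0.11).

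DNA sensing had the largest share of higher genes of these lists, 5 of 8 in early LPre-B and 4 of 8 in sPre-B cells, where 14.5% and 19.8% of all genes were higher, with medians of 0.49 and 0.59. *Mre11a*, a DNA end-processing nuclease (0.76, SE 0.09, and 0.61, SE 0.09), and *Zdhhc1*, in early LPre-B cells (1.62, SE 0.24), were among them, as was *Ddx41* in sPre-B cells (0.65, SE 0.11).

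For interferon ligands, receptors and signalling, 14 of 19 genes were tested, and 3 were higher and 2 lower in early LPre-B and 5 higher and 2 lower in sPre-B cells (medians 0.09 and 0.22, and -0.11 and 0.01 without replicate 2 of the cKO group). *Ifnb1* and *Ifne* had 0 counts in all 8 libraries, and *Ifna1*, *Ifna2* and *Ifna4* had at most 2 counts in any library, under the floor of 3 counts. *Ifnz*, a type I interferon of the limitin family, was at 0.969 and 0.513 CPM in Ctrl and 2.91 CPM in both cKO early LPre-B libraries (1.95, SE 0.42, adjusted *P* = 0.00899). *Stat2*, which transmits the type I interferon signal, was higher (0.92, SE 0.09, and 0.60, SE 0.08), and *Socs1*, which inhibits it, was lower at both stages (-1.09, SE 0.13, and -1.46, SE 0.13). The signalling gene *Jak1* was lower at both stages too (-0.50, SE 0.10, and -0.43, SE 0.10), and *Tyk2* was higher in sPre-B cells (0.80, SE 0.10). Of the 20 interferon-stimulated genes, which were chosen knowing that the study described such genes in *Upf1*-deficient B cells, 2 were higher in early LPre-B cells, *Mx2* (2.92, SE 0.72, adjusted *P* = 0.0155) and *Bst2* (0.84, SE 0.18, adjusted *P* = 0.00924), and 1 in sPre-B cells, *Bst2* (1.75, SE 0.19, adjusted *P* = 0.000265). Their medians were 0.20 and 0.42, and -0.38 and -0.35 without replicate 2 of the cKO group.

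**Figure D5:**
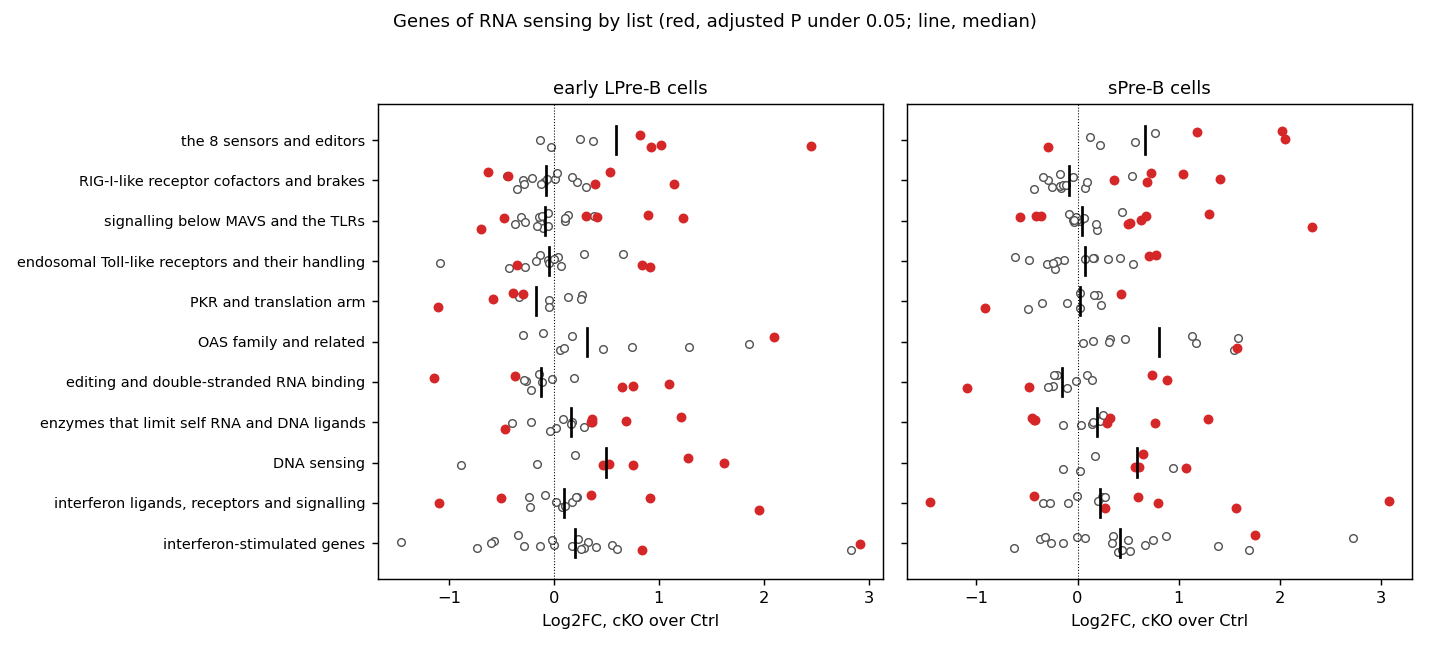
Log2FC of cKO over Ctrl cells for the tested genes of the lists that are reported, in early LPre-B (left) and sPre-B cells (right); each point is a gene, red where the adjusted *P* was under 0.05, and the line is the list's median. The medians of the 8 sensors and editors lie at 0.60 and 0.67 and those of DNA sensing at 0.49 and 0.59. Without replicate 2 of the cKO cells these medians were 0.34 and 0.20, and 0.45 and 0.44.

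Between the stages, 29.1% of all genes were higher and 31.1% lower in sPre-B cells of Ctrl mice, and 31.6% and 31.1% in those of cKO mice. Interferon signalling was the list with the largest share of tested members higher in sPre-B cells, marker lists aside, 11 of 14 in Ctrl and 11 of 14 in cKO mice, with medians of 0.82 and 0.94. Endosomal Toll-like receptors and their handling had 10 of 15 higher in either genotype (medians 0.82 and 0.62). Editing and double-stranded RNA binding had 8 of 12 lower in Ctrl and 7 of 12 lower in cKO cells (medians -0.71 and -0.59). Among them were the microRNA processing pair *Dgcr8* (-1.38, SE 0.11, in Ctrl and -1.27, SE 0.11, in cKO) and *Drosha* (-1.24, SE 0.09, and -1.33, SE 0.09). *Adarb1*, an editing enzyme named after its values were seen, fell too (-0.94, SE 0.21, in Ctrl and -1.93, SE 0.22, in cKO), whereas *Adar* rose. *Ikbke* fell from 10.1 and 9.89 to 0.686 and 0.908 CPM in Ctrl cells (-3.66, SE 0.17, adjusted *P* = 1.37e-06), and *Socs1* rose (3.05, SE 0.14).

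Plasmacytoid dendritic cells express *Tlr7*, and the summed level of 6 of their markers was 163 to 204 CPM in Ctrl and 238 to 258 CPM in cKO early LPre-B cells and 259 to 280 and 363 to 397 CPM in sPre-B cells. Of the 6 markers, 2 were higher in cKO early LPre-B cells (*Bst2* and *Cox6a2*) and 3 in cKO sPre-B cells (*Bst2*, *Ccr9* and *Irf8*). *Irf8*, which B cells also express, made up most of the sum (150 to 338 CPM), whereas the defining marker *Siglech* was at 0.028 to 0.231 CPM in early LPre-B and 0.497 to 0.936 CPM in sPre-B cells (3 to 101 counts) and *Klk1* at 0.051 to 0.280 CPM (7 to 35 counts), and neither passed the test between genotypes. *Siglech* was higher in sPre-B than in early LPre-B cells of both genotypes (1.95, SE 0.57, in Ctrl and 3.45, SE 0.62, in cKO). The summed level of 8 myeloid markers was lower in cKO cells, 111 to 134 against 50.3 to 55.7 CPM in early LPre-B and 305 to 356 against 212 to 244 CPM in sPre-B cells, of which 2 and 1 markers passed the test. *Itgam*, which encodes CD11b, an antigen of the lineage stain whose positive cells the gate leaves out, made up most of this sum, at 87.1 and 97.4 against 30.4 and 41.2 CPM in early LPre-B and 228 and 262 against 179 and 176 CPM in sPre-B cells. T and NK cell markers summed to at most 2.60 CPM and erythroid markers to at most 26.9 CPM, and no marker was at 0 in every library. Markers of the B cells differed too. In early LPre-B cells 6 large pre-B markers, mostly *Mki67*, summed to 5512 to 5733 CPM in Ctrl and 3400 to 3582 CPM in cKO. Sums of 6 small pre-B markers were 686 to 692 and 404 to 437 CPM. Those of 6 B lineage markers were 2462 to 2504 and 1712 to 1737 CPM. In sPre-B cells, large pre-B sums were 424 to 797 and 731 to 837 CPM. Small pre-B sums were 4583 to 5022 and 3619 to 3694 CPM, and B lineage sums 5503 to 6228 and 3940 to 4387 CPM. The part of other cells and of these markers in the values of the 8 genes was not tested.

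Because strand was not used in counting, reads of overlapping genes cannot be told apart. *Adar* shares 1365 exonic bases (22.8% of its exonic length) with *Chrnb2* on the opposite strand, which had 166 to 483 counts, *Dhx58* shares 141 bases (5.85%) with *Dhx58os* and *Eif2ak2* shares 174 bases (4.03%) with *Gm26637*. The other 5 genes share none with another annotated gene.

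Over the 8 libraries, and as a description of points that share their libraries, the pattern of *Ddx58* was most like that of *Wdr7* (Pearson's r of log2 CPM 0.998), that of *Ifih1* like *Actr6* (0.982) and *Dmap1* (0.977), and that of *Dhx58* like *0610030E20Rik* (0.975) and *Ap3m1* (0.972), among 12207 genes. For *Mavs* the nearest were *Ccdc88c* (0.964) and *Vps8* (0.96), for *Eif2ak2* *Gm6548* (0.985) and *Mitd1* (0.976), and for *Adar* *Mbip* (0.986) and *D230025D16Rik* (0.983). *Zbp1* was nearest to *Tmem184b* (0.983) and *Serpina3f* (0.981), and *Tlr7* to *Cdkn2aip* (0.99) and *Baiap3* (0.989). Between the 8 genes themselves r was highest for *Ddx58* and *Zbp1* (0.918) and for *Dhx58* and *Tlr7* (0.916), and it was -0.20 for *Ddx58* and *Ifih1*.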

How the data were processed

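RNA of early LPre- and sPre-B cells sorted from Ctrl/IghB1-8hi and cKO/IghB1-8hi mice was depleted of ribosomal RNA and sequenced in 8 libraries, 2 per group, the groups taken from the labels. The authors used Trim Galore for trimming, HISAT2 for alignment to mm10 (paired-end, without strand) and featureCounts for counting, and deposited raw counts per Entrez gene; versions are not given in the sources used here. Names came from RefSeq for 25275 of 27179 genes. The edgeR package (4.0.16, under R 4.3.3) was run with TMM factors (0.862 to 1.09), filterByExpr by group, 1 mean per group over all 8 libraries, its quasi-likelihood F test (two-sided) and adjustment by Benjamini and Hochberg over the 17700 genes tested (biological coefficient of variation 0.174); a gene was called at an adjusted *P* under 0.05. SE is an approximate standard error of the Log2FC, its absolute value divided by the square root of the test's F statistic. CPM per kb used exonic lengths from GENCODE vM21. The fit was tested on simulated data. The study's methods name edgeR.

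All 8 genes were named, from each list up to 2 genes in either direction with the lowest adjusted *P*, and the 2 genes nearest to each of the 8 in pattern, most of which are reported; marker genes are given by list. The genes and lists were chosen with earlier results of these data known. Alternatives were median-ratio factors, no expression filter, edgeR's likelihood-ratio test, DESeq2 1.42.0, a block for the replicate number, the 4 libraries compared, and leaving out each library or both Ctrl libraries without *Xist*; where 1 library was left in a group, it was assumed to vary like the other groups. Replicates differed by more than sampling noise. The libraries of other genotypes were not analysed here. Some list genes are not reported here and were left out of their lists' counts and medians, but not of the fit.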

Additional observations from a re-analysis of the deposited data

How the results depend on the processing

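Calls of *Tlr7* in cKO against Ctrl cells at both stages, of *Ifih1* and *Dhx58* in cKO against Ctrl sPre-B cells, and of *Ddx58* between the stages in both genotypes held under all 15 alternatives. With each library left out in turn, the number of the 8 genes called higher in cKO early LPre-B cells lay between 1 and 5 (4 with all libraries), and the number lower in cKO sPre-B cells between 0 and 1, as did the number lower in sPre-B cells in Ctrl, in cKO and for the interaction. Without both Ctrl libraries that lack *Xist*, 1 of the 8 was higher in cKO early LPre-B cells, 0 lower in cKO sPre-B cells, and 2 higher and 0 lower in Ctrl sPre-B than early LPre-B cells. With no expression filter, 5 were higher and 0 lower in cKO sPre-B cells, 1 was lower in cKO sPre-B than early LPre-B cells (also with DESeq2) and 1 had a lower interaction, as with median-ratio factors, the likelihood-ratio test and DESeq2; the likelihood-ratio test called 0 lower in cKO sPre-B cells. Same-numbered libraries of the 2 stages deviated together within a genotype (correlations of 0.395 in Ctrl and 0.254 in cKO cells), and those of different genotypes less (0.0514 to 0.198). The labels do not say that a number marks a shared animal, so that the numbers were not taken as pairs. With the replicate block, *Eif2ak2* was lower (1 gene, Log2FC -0.57, adjusted *P* = 0.0293) and *Dhx58* higher (0.54, adjusted *P* = 0.0315) in cKO sPre-B than early LPre-B cells, and calls over all genes went from 5547 to 6046 (5465 shared) in early LPre-B and from 6134 to 6623 (6057 shared) in sPre-B cells. Over all genes, leaving out 1 library gave 1634 to 2790 higher (2564) and 1289 to 2717 lower (2983) in cKO early LPre-B cells, 2258 to 3381 (3505) and 1366 to 3256 (2629) in sPre-B cells, and 84 to 569 higher (467) and 42 to 333 lower (283) for the interaction. The interaction had 1078 higher and 497 lower with no filter, 1004 and 504 by the likelihood-ratio test, 59 and 33 without both Ctrl libraries that lack *Xist*, and 1035 and 704 with DESeq2. Values near 0 turned in sign: *Ddx58* in cKO early LPre-B cells (0.13 without both such Ctrl libraries, 0.034 with 4 libraries, and -0.33 to 0.22 with a library left out), and *Ifih1* between the stages in cKO cells (-0.0011 with 4 libraries, -0.31 to 0.48 with a library left out). With a library left out, the Log2FC ran from -0.65 to 0.31 for *Zbp1* in early LPre-B cells, -0.11 to 0.32 for *Adar* in sPre-B cells, -0.39 to 0.46 for *Tlr7* between the stages in cKO cells, and -0.48 to 0.020 and -0.80 to 0.019 for the interaction of *Adar* and *Eif2ak2*. The cause of these changes was not tested, apart from the smaller number of libraries or genes where these were left out.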
